A study of Homo sapiens with 4 samples.

Results

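The miR-29 family was followed across 2 human colorectal adenocarcinoma cell lines, HT29 and HCT15, each sequenced as spheres and as parental cells. The members were taken by name: hsa-miR-29a-3p, hsa-miR-29a-5p, hsa-miR-29b-3p, hsa-miR-29b-1-5p, hsa-miR-29b-2-5p, hsa-miR-29c-3p and hsa-miR-29c-5p, written below without the species prefix. All 7 were found in each of the 4 files, among 1882 names that the files share and 2080 names listed in any of them. Spheres of both lines were grown in DMEM-F12 with N2 Plus Supplement, bFGF at 10 ng/ml and EGF at 10 ng/ml, and the submitters describe them as sphere-derived cancer stem cells. Parental cells were grown with 10% FBS, HT29 in DMEM and HCT15 in RPMI. All media held penicillin and streptomycin. Sphere growth, loss of serum and change of medium therefore cannot be told apart. Each of the 4 groups had 1 library, with no replicate, so no ratio within a line has a replicate check, and each line stands for its own stock of cells only.

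A miRNA is cut from a hairpin that yields a 5p and a 3p arm, one of which usually enters the silencing complex while the other is degraded. In the miR-29 family the 3p arm is the guide strand, and its known targets include collagens and other genes of the extracellular matrix, the DNA methyltransferases DNMT3A and DNMT3B, and the survival factor MCL1. The family is widely described as repressed by MYC, NF-kB and TGF-beta signalling, and it is often reported as low in tumours. The hairpins lie in pairs at 2 loci, and each pair is thought to be transcribed together.

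The mature sequences are shown because family membership, and the separation of reads between members, rest on them. They come from RefSeq on GRCh38.p14, in which all 7 members were matched by name. Capitals mark the seed, bases 2 to 8 counted from the 5′ end. The guide strands share 1 seed, and no other mature human entry among the 2370 in the RefSeq table has it.
miR-29a-3p: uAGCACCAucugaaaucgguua
miR-29b-3p: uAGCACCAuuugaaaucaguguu
miR-29c-3p: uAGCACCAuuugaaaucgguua
The 5p arms have 4 different seeds, each found in no other entry of that table.
miR-29a-5p: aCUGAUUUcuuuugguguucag
miR-29b-1-5p: gCUGGUUUcauauggugguuuaga
miR-29b-2-5p: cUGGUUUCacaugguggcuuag
miR-29c-5p: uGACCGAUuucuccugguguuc

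miR-29a-3p and miR-29c-3p differ at 1 of 22 bases, written C10U with the base of miR-29a first and positions counted from the 5′ end. Against miR-29a-3p, miR-29b-3p has C10U, G18A, U21G and A22U, and it is 1 base longer than the 22 bases of either. Bases 9 to 11 are UUU in miR-29b-3p and miR-29c-3p but not in miR-29a-3p. miR-29b-3p ends in AGUGUU, as does 1 other entry of the table, miR-519e-3p. That ending was described in human cells as an element that directs miR-29b to the nucleus. The 5p arms of the miR-29b hairpins are offset by 1 base at the 5′ end. Over the 22 bases they share they differ by U11C and U19C, numbered in miR-29b-1-5p, and the offset gives them different seeds. How the deposited counting treated mismatches and reads that map to several places is not given in the sources used here, so the split between miR-29a-3p and miR-29c-3p rests on a single base.

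On GRCh38, MIR29A (chromosome 7, 130876747 to 130876810) and MIR29B1 (chromosome 7, 130877459 to 130877539) lie on the minus strand with 648 bases between the hairpins. MIR29B1 lies within an exon of the noncoding gene LINC-PINT, and both hairpins lie in an intron of the noncoding gene AC016831.6. MIR29A shares only 2 bases with LINC-PINT. MIR29B2 (chromosome 1, 207802443 to 207802523) and MIR29C (chromosome 1, 207801852 to 207801939) lie on the minus strand with 503 bases between them, within an exon of their host MIR29B2CHG. Positions in GENCODE 29 and RefSeq are the same for all 4 hairpins. The 23 bases of miR-29b-3p are identical at both loci, so its reads cannot be assigned to either. The locus-specific arms are miR-29a-3p, miR-29a-5p and miR-29b-1-5p for the 29a~29b-1 cluster, and miR-29c-3p, miR-29c-5p and miR-29b-2-5p for the 29b-2~29c cluster.

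Levels are given in CPM, reads scaled to a common total of 1000000 listed miRNA reads per library. The HT29 files hold 12794274 reads in spheres and 5806540 in parental cells. The HCT15 files hold RPKM values, which correspond to about 2325418 and 3189984 reads in spheres and parental cells, so HCT15 reads are equivalents and their intervals approximate. The value of 1 read in HCT15 spheres was not settled by the data: it could be 2 times as large, which would leave CPM as they are, give spheres 0.5 times the reads printed here and widen their intervals. If RPKM was scaled by the length of the mature miRNA, the 24 bases of miR-29b-1-5p and the 22 of the shortest members would shift their HCT15 levels against each other by 9.09%. The lines were deposited in unlike units, raw counts for HT29 and RPKM for HCT15, so levels set across lines are descriptions. All 8 miRNAs of the colorectal epithelium list were at 50 CPM or more in both lines. Their summed level was 234361 and 170867 CPM in HT29 spheres and parental cells, and 22572 and 24230 CPM in those of HCT15. The 5 stromal miRNAs summed to between 7.43 and 20.7 CPM in the 4 libraries, and miR-214-3p, one of them, was listed at 0 in all. The 6 blood-cell miRNAs summed to 484 and 483 CPM in HT29 spheres and parental cells. In those of HCT15 they summed to 62.4 and 59.7 CPM. In HT29 the largest parts were miR-142-3p at 367 and 381 CPM and miR-142-5p at 106 and 77.3 CPM. In HCT15 the largest was miR-486-5p at 34.8 and 42.9 CPM, and miR-223-3p was listed at 0 in all 4 libraries. The 2 endothelial miRNAs summed to 256 and 293 CPM in HT29 and 121 and 127 CPM in HCT15, in the same order of cultures. The 3 muscle miRNAs summed to 1159 CPM in HT29 spheres against 166 CPM in parental cells, nearly all of it miR-1, and were listed at 0 in HCT15. The part of this difference in the HT29 results was not tested.

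The family made up more of the HT29 libraries than of the HCT15 libraries, and its share was lower in HT29 spheres than in HT29 parental cells. All 7 arms together took 1.18% of listed reads in HT29 spheres (95% Wilson interval 1.18 to 1.19) against 2.34% in HT29 parental cells (2.32 to 2.35). They took 0.367% in HCT15 spheres (0.359 to 0.375) against 0.330% in HCT15 parental cells (0.323 to 0.336). The guide arms carried almost all of this. The 5p arms came to 0.962% of family reads in HT29 spheres and 1.04% in HT29 parental cells, and to 0.576% and 0.814% in those of HCT15. Intervals here and below cover counting error only, since each group had 1 library, and reads carry no molecular identifiers.

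miR-29a-3p was the most abundant arm in every library. It was at 4864 CPM in HT29 spheres and 8426 CPM in HT29 parental cells, and at 1985 CPM in HCT15 spheres and 1819 CPM in HCT15 parental cells. By level it ranked 33rd and 27th of 1921 names in HT29 spheres and parental cells and 55th and 56th of 2041 names in those of HCT15. miR-29c-3p, the guide of the chromosome 1 cluster, followed at 4579 CPM in HT29 spheres and 7669 CPM in HT29 parental cells, and at 1339 CPM in HCT15 spheres and 1288 CPM in HCT15 parental cells. Both were thus higher in HT29 than in HCT15 in either culture, and the cultures of HCT15 lay close together.

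Of the 3 guides, miR-29b-3p, encoded at both loci, separated the lines most. It was at 2281 CPM in HT29 spheres and 7022 CPM in HT29 parental cells, and at 327 CPM in HCT15 spheres and 163 CPM in HCT15 parental cells. As spheres HT29 exceeded HCT15 by 6.98-fold for miR-29b-3p, 2.45-fold for miR-29a-3p and 3.42-fold for miR-29c-3p. As parental cells it did so by 43.2-fold for miR-29b-3p, 4.63-fold for miR-29a-3p and 5.95-fold for miR-29c-3p. The gap between the lines was therefore smaller in spheres for all 3 guides, and most so for miR-29b-3p. miR-29b-3p is the only guide encoded at both loci, and how reads that map to both were counted is not given. HT29 values were deposited as counts and HCT15 values as RPKM. The part of counting in the gap of miR-29b-3p between the lines was not tested.

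The 5p arms were scarce. miR-29a-5p, from the passenger side of its hairpin, was at 82.8 CPM in HT29 spheres and 187 CPM in HT29 parental cells, and at 15.9 CPM in HCT15 spheres and 14.1 CPM in HCT15 parental cells. miR-29c-5p was at 10.6 CPM in HT29 spheres and 31.5 CPM in HT29 parental cells, and at 1.72 and 3.13 CPM in those of HCT15, which were 4 and 10 read equivalents. miR-29b-1-5p was at 10.5 and 13.3 CPM in HT29 spheres and parental cells, and at 2.64 and 8.19 CPM in those of HCT15. miR-29b-2-5p was at 10.0 and 10.8 CPM in HT29 spheres and parental cells, and at 0.860 and 1.41 CPM in those of HCT15. These last HCT15 values were 2 and 4.5 read equivalents, at or near the 1.29 and 0.940 CPM that a count of 0 allows with 3 reads in spheres and parental cells, so no difference of miR-29b-2-5p was detectable there.

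**Figure D1:**
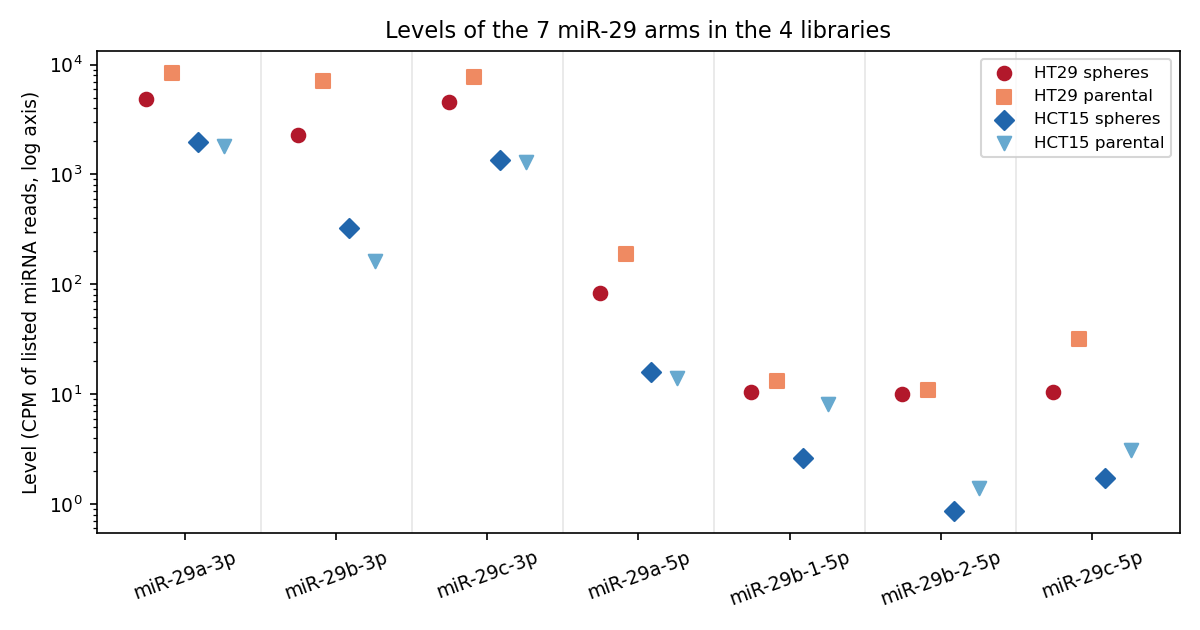
Level in CPM (log axis) of each miR-29 arm, 1 point per library for spheres and parental cells of HT29 and HCT15. The 3p arms lie above the 5p arms of the same library, and the widest gap between lines is that of miR-29b-3p in parental cells, at 7022 CPM in HT29 and 163 CPM in HCT15.

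In HT29 the guide arms were lower in spheres in CPM, and miR-29b-3p by the most. Ratios between cultures are given as log2 of spheres over parental cells after scaling by TMM, which sets the bulk of miRNAs at no difference, with a prior count of 2 reads. miR-29b-3p had a log2 ratio of -1.04 (95% interval -1.06 to -1.02), and under each of 6 scalings it stayed below 0, between -1.62 and -0.81. miR-29a-3p had -0.21 (-0.23 to -0.19) and miR-29c-3p -0.16 (-0.18 to -0.14). Neither sign was fixed: with upper-quartile scaling miR-29a-3p came to 0.015 and miR-29c-3p to 0.063, and with total reads they came to -0.79 and -0.74. With TMM on the HT29 libraries alone miR-29c-3p came to 0.021.

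Of the HT29 5p arms, miR-29c-5p had a log2 ratio of -0.98 (-1.33 to -0.67) and miR-29a-5p -0.59 (-0.71 to -0.47), both below 0 under each of 6 scalings. miR-29b-1-5p had 0.24 (-0.17 to 0.67) and miR-29b-2-5p 0.46 (0.020 to 0.92), with signs that turned with total reads. At least 2-fold lower were 1 of 7 members, miR-29b-3p, where 16.6% of the 897 names above 0 in both HT29 libraries were. At least 2-fold higher were 0 of 7, against 13.4%. The count of 1 was 3 with total reads, where 32.4% of the 897 names were at least 2-fold lower, and 0 with the upper quartile, where 11.9% were. The median over the 7 arms was -0.21, beside -0.13 over those 897 names. Averages of 50 CPM or more in HT29 were reached by 4 arms, whose median was -0.40, beside 0.0080 over the 221 miRNAs at that level. With the upper quartile these medians were -0.17 and 0.23.

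In HCT15 the guide arms were higher in spheres, again with miR-29b-3p by the most. miR-29b-3p had a log2 ratio of 1.35 (1.20 to 1.52), between 1.00 and 1.61 over the 6 scalings. Of the 200 miRNAs whose 2 HCT15 libraries averaged 50 CPM or more, 97.5% had a lower ratio. miR-29a-3p had 0.48 (0.42 to 0.53) and miR-29c-3p 0.41 (0.34 to 0.48). Both stayed above 0 under each of 6 scalings, down to 0.13 and 0.056 with total reads.

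Of the HCT15 5p arms, miR-29a-5p had 0.50 (-0.14 to 1.19), miR-29b-1-5p -1.11 (-2.88 to 0.0056), miR-29b-2-5p -0.22 (-3.91 to 2.10) and miR-29c-5p -0.39 (-2.64 to 1.28). Each of these intervals includes 0, so no difference was detectable at this depth. At least 2-fold higher were 1 of 7 members, miR-29b-3p, against 8.73% of the 550 names above 0 in both HCT15 libraries. At least 2-fold lower were 1 of 7, miR-29b-1-5p, against 12% of those names, and that count was 0 with DESeq2 size factors, the upper quartile or a prior count of 10. The median over the 7 arms was 0.41, beside -0.044 over those 550 names. With total reads these medians were 0.056 and -0.35.

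**Figure D2:**
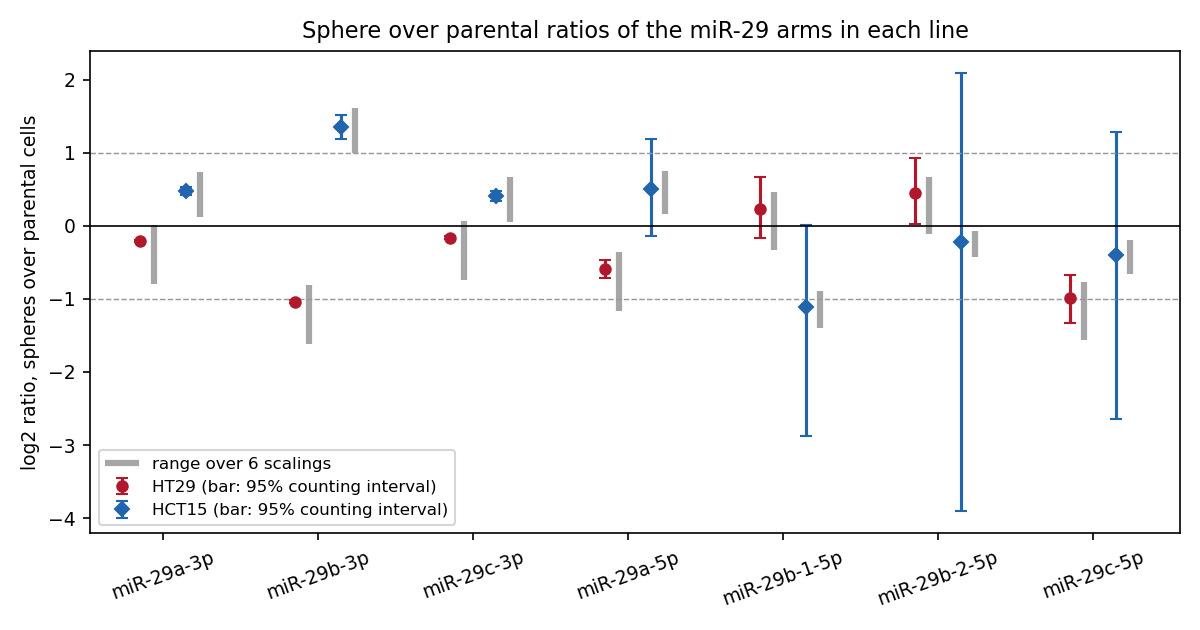
Log2 ratio of spheres over parental cells for each arm in HT29 and HCT15, with 95% counting intervals, and grey bars for the range over 6 scalings. miR-29b-3p lies at -1.04 in HT29 and 1.35 in HCT15, and its grey bars do not cross 0.

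The ratios of miR-29b-3p in the lines pointed in opposite directions. Averages of 50 CPM or more over all 4 libraries were found for 239 miRNAs, of which 45.6% had opposite signs in the lines, so a change of sign alone was common. A ratio below a log2 of -1 in HT29 together with one above 1 in HCT15 was found for 5 of them: miR-29b-3p, miR-135a-5p, miR-135b-5p, miR-31-3p and miR-31-5p, the other 4 named after their values were seen. The place of miR-29b-3p in this set depends on scaling. Its HT29 ratio was -0.81 with the upper quartile and -0.86 with TMM on the HT29 libraries alone, short of that limit. Ordered by the HT29 minus the HCT15 ratio, lowest first, miR-29b-3p stood 6th with -2.39, miR-29a-3p 68th with -0.69 and miR-29c-3p 75th with -0.57. With 1 library per group this difference between lines was not tested.

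**Figure D3:**
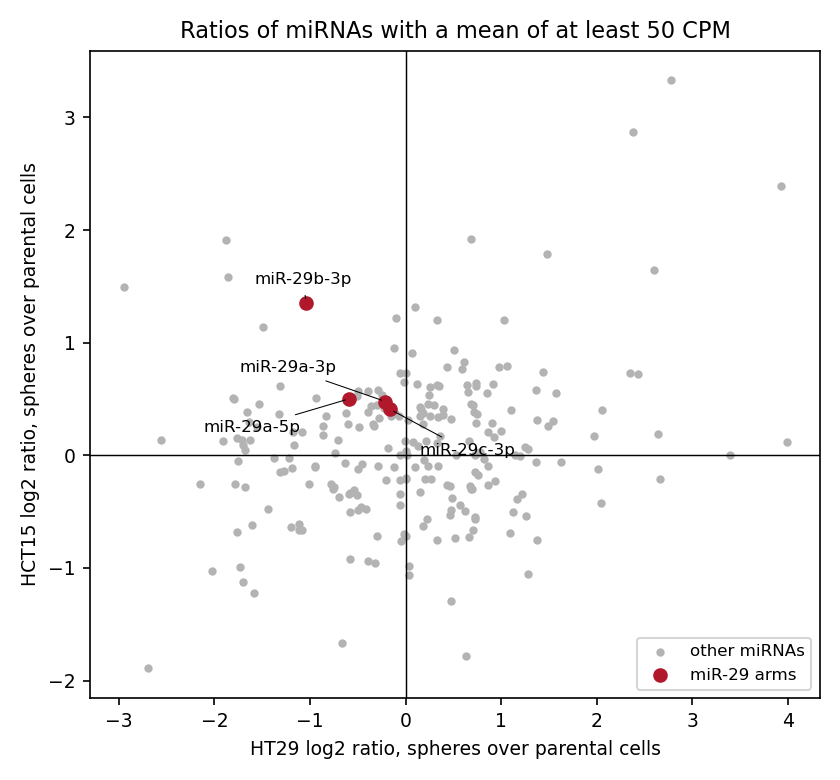
Log2 ratio of spheres over parental cells in HT29 (x axis) and in HCT15 (y axis), 1 point for each of the 239 miRNAs that averaged 50 CPM or more. miR-29b-3p sits at the upper left, while miR-29a-3p and miR-29c-3p lie together near the middle.

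The only comparison with more than 1 library per culture takes the lines as replicates of each culture. In a limma fit that blocks on the line, 0 of 7 miR-29 arms were called at 0.05 after Benjamini-Hochberg adjustment, where 0% of all 377 miRNAs tested were (smallest adjusted p = 0.469). Before adjustment, 0 of 7 arms and 21 of 377 miRNAs passed 0.05 in limma. On reads, edgeR called 7 of 378 miRNAs and DESeq2 called 5 of 378, with 28 and 21 past 0.05 before adjustment. Neither had a miR-29 arm at either threshold. Among its alternatives limma called 5 of 377 miRNAs without the 10 most abundant and 7 of 1234 with no filter, again with 0 miR-29 arms. miR-29b-3p had a log2 fold change of 0.16 with an SE of 0.72 in limma (adjusted p = 0.962), the opposite ratios of the lines leaving a mean near 0. miR-29c-5p had the smallest p of the family in limma, with a log2 fold change of -0.65 and an SE of 0.36 (adjusted p = 0.757). Its HCT15 value rests on 4 and 10 read equivalents in spheres and parental cells, so a shared direction in the lines was not shown. miR-29b-1-5p, miR-29b-2-5p and miR-29c-5p passed the minimum of 10 CPM in 2 libraries through HT29 alone. With 1 residual degree of freedom the fit leaves differences of this size unresolved, and nothing in the labels says that cultures of a line were repeated.

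The balance between members within a library does not depend on how libraries are scaled to each other. In HT29, miR-29b-3p made up 19.5% of the 3p reads in spheres (95% Wilson interval 19.3 to 19.7) against 30.4% in parental cells (30.1 to 30.6). In HCT15 it made up 8.95% in spheres (8.36 to 9.58) against 4.97% in parental cells (4.58 to 5.41). The share of miR-29b was thus lower in the spheres of HT29 and higher in those of HCT15, with intervals that do not overlap in either line. miR-29a-3p made up 41.5% and 36.4% in HT29 spheres and parental cells, and 54.4% and 55.6% in those of HCT15. miR-29c-3p made up 39.1% and 33.2% in HT29 spheres and parental cells, and 36.7% and 39.4% in those of HCT15.

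**Figure D4:**
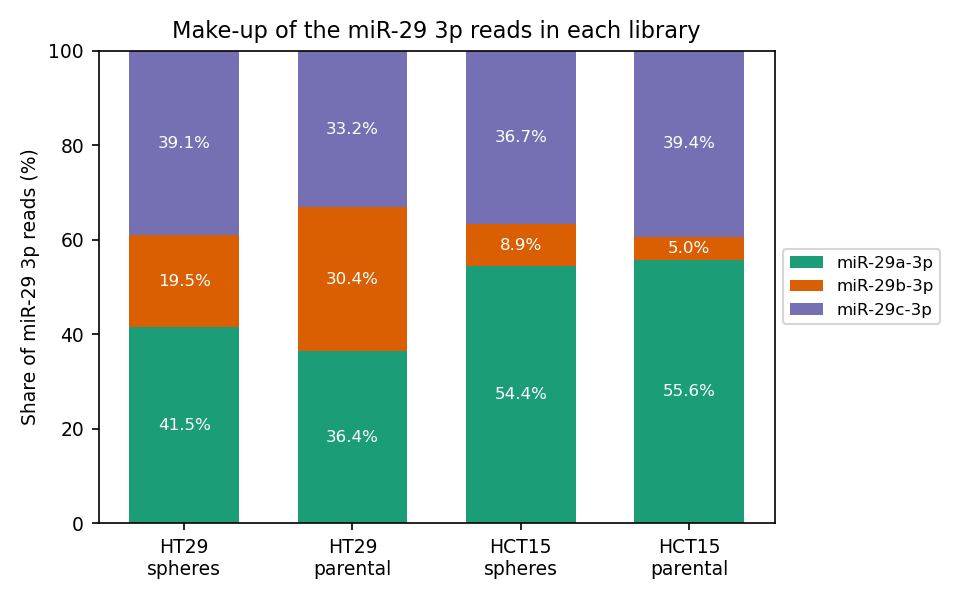
Share in percent of miR-29a-3p, miR-29b-3p and miR-29c-3p among the miR-29 3p reads of each library. The miR-29b-3p segment is 19.5% in HT29 spheres against 30.4% in HT29 parental cells, and 8.95% in HCT15 spheres against 4.97% in HCT15 parental cells.

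The guides of the separate clusters kept nearly the same ratio to each other. There were 1.06 reads of miR-29a-3p per read of miR-29c-3p in HT29 spheres and 1.10 in HT29 parental cells, a log2 difference of -0.049 (95% interval -0.073 to -0.024). In HCT15 there were 1.48 in spheres and 1.41 in parental cells, a log2 difference of 0.070 (-0.017 to 0.16). miR-29b-3p moved against both. Its reads per read of miR-29a-3p came to 0.469 in HT29 spheres and 0.833 in HT29 parental cells, a log2 difference of -0.83 (-0.86 to -0.80). In HCT15 they came to 0.165 in spheres and 0.0894 in parental cells, a log2 difference of 0.88 (0.71 to 1.05). Against miR-29c-3p the log2 differences were -0.88 (-0.91 to -0.85) in HT29 and 0.95 (0.78 to 1.13) in HCT15. The sizes are alike in the lines and the directions are opposite.

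Other miRNAs that share a seed give a measure of how far such members part. Only names matched to a sequence entered, 187 of the 221 miRNAs averaging 50 CPM or more in HT29 and 168 of 200 in HCT15. In HT29, 82 pairs of miRNAs with the same seed, each averaging 50 CPM or more, differed in log2 ratio by a median of 0.47. The pair of miR-29a-3p and miR-29c-3p differed by 0.049, with 13 pairs closer. The pairs of miR-29b-3p with miR-29a-3p and miR-29c-3p differed by 0.83 and 0.88, with 53 and 55 pairs closer. In HCT15, 77 such pairs had a median of 0.24. There miR-29a-3p and miR-29c-3p differed by 0.070, with 12 pairs closer, while miR-29b-3p differed from them by 0.88 and 0.95, with 70 and 73 pairs closer. Pairs share miRNAs and are no independent sample, and these miR-29 pairs are counted among them. Reads of miR-29a-3p and miR-29c-3p assigned to each other across their single differing base would bring their ratios together, which was not tested.

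Summed over locus-specific arms, the clusters moved alike. The 29a~29b-1 cluster came to 4957 CPM in HT29 spheres and 8625 CPM in HT29 parental cells (log2 ratio -0.22, interval -0.23 to -0.20), and to 2003 and 1841 CPM in those of HCT15 (0.47, 0.42 to 0.53). The 29b-2~29c cluster came to 4599.8 CPM in HT29 spheres and 7711 CPM in HT29 parental cells (-0.16, -0.18 to -0.14), and to 1342 and 1293 CPM in those of HCT15 (0.41, 0.34 to 0.47). The HT29 signs of both sums turned with upper-quartile scaling, to 0.0084 for 29a~29b-1 and 0.062 for 29b-2~29c. With TMM on the HT29 libraries alone the sum for 29b-2~29c also turned, to 0.020. The 29a~29b-1 arms made up 51.9% and 52.8% of locus-specific reads in HT29 spheres and parental cells and 59.9% and 58.7% in those of HCT15. These sums are almost all miR-29a-3p and miR-29c-3p, with 5p arms at most 2.32% of a sum.

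The 5p arms of miR-29b, which do tell its hairpins apart, were near parity in HT29. miR-29b-1-5p made up 51.1% of them in HT29 spheres (exact 95% interval 44.9 to 57.3, from 134 and 128 reads) and 55.0% in HT29 parental cells (46.4 to 63.4, from 77 and 63 reads). In HCT15 it made up 75.5% in spheres (34.9 to 96.8) and 85.3% in parental cells (66.3 to 94.5). The HCT15 parental value rests on 26.1 and 4.5 read equivalents, and that of spheres on 6.15 and 2, or on 0.5 times as many with the larger value of 1 read (19.4 to 99.4). Within each line the intervals of spheres and parental cells overlap, so no change in the use of the hairpins was detectable.

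The arms of the miR-29b hairpins did not move together. In HT29, miR-29b had 8.98 5p reads per 1000 3p reads in spheres and 3.43 in parental cells, a log2 difference of 1.39 (95% interval 1.09 to 1.68). In HCT15 it had 10.7 in spheres and 59.1 in parental cells, a log2 difference of -2.46 (-3.85 to -1.34). The 5p arms were thus more abundant relative to the 3p arm in the spheres of HT29 and less so in those of HCT15. Among 139 hairpins with at least 20 reads over both arms in each library, 132 had a lower difference of the minor over the major arm than miR-29b in HT29, and 0 had a lower one in HCT15. On that scale, which adds 2 reads to each arm, miR-29b had 1.38 and -2.23. The HCT15 value rests on 8.15 and 30.6 read equivalents of 5p in spheres and parental cells, and the values of miR-29b-1-5p were not whole reads. With the larger value of 1 read the sphere library holds 4.07 of them, and the interval widens to -4.48 to -0.99. With 10 reads added to each arm the difference was -1.70.

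miR-29a and miR-29c had lower 5p to 3p ratios in HT29 spheres. miR-29a had 17.03 5p reads per 1000 3p reads in HT29 spheres and 22.2 in HT29 parental cells (log2 difference -0.38, -0.50 to -0.26). miR-29c had 2.30 in HT29 spheres and 4.11 in HT29 parental cells (-0.83, -1.16 to -0.51). On the scale that adds 2 reads to each arm, the median over the 139 hairpins was -0.29 in HT29, with quartiles of -1.05 and 0.43. The minor arm was thus lower in most of these hairpins on that scale. Added reads weigh more in the smaller parental library, which lowers such differences, so a general fall of minor arms was not shown. The values of miR-29a and miR-29c lay between those quartiles, with 66 and 41 hairpins lower. In HCT15 miR-29a had 8.02 in spheres and 7.76 in parental cells (0.048, -0.58 to 0.68), and miR-29c had 1.28 and 2.43 (-0.92, -2.60 to 0.75). Neither HCT15 difference was detectable at this depth. For scale, the minor arm of the 139 hairpins had a median of 25.5 and 25.6 reads per 1000 of the major arm in HT29 spheres and parental cells and 22.3 and 38.0 in those of HCT15.

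**Figure D5:**
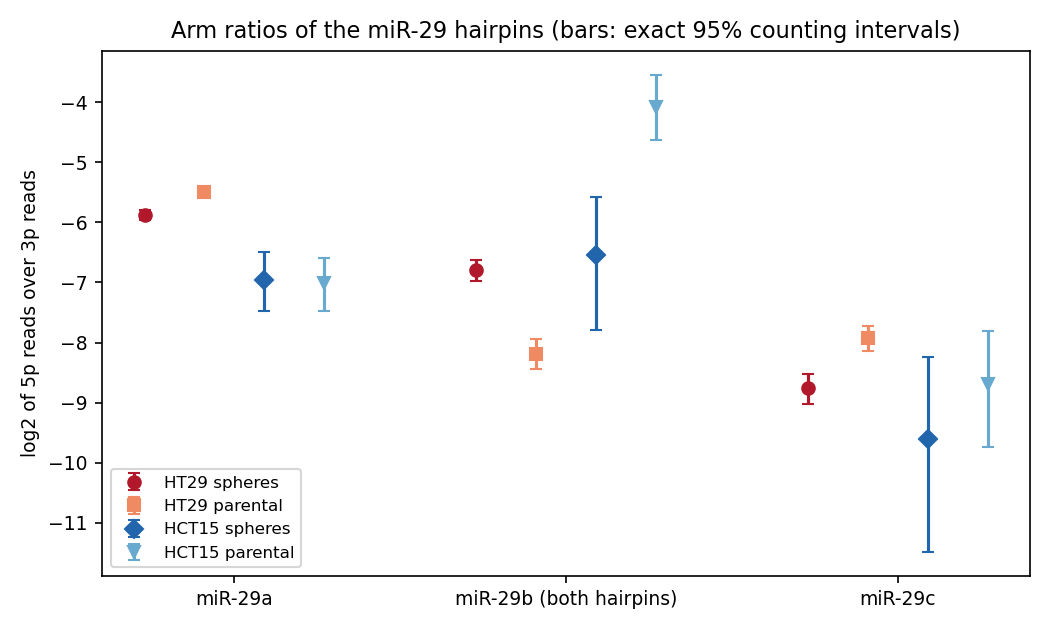
Log2 of 5p over 3p reads for miR-29a, miR-29b (both hairpins summed) and miR-29c in each library, with exact 95% counting intervals. For miR-29b spheres lie above parental cells in HT29, at 8.98 against 3.43 5p reads per 1000 3p reads, and below them in HCT15, at 10.7 against 59.1.

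By level over the 4 libraries, the miRNAs most like each guide were sought among 238 others averaging 50 CPM or more. Likeness was the Euclidean distance between log2 levels centred on their mean, over 4 libraries that share line and culture, and it is a description only. Nearest to miR-29a-3p were miR-23a-3p (distance 0.11), miR-361-5p (0.15) and miR-107 (0.32), where the median distance was 2.40. Nearest to miR-29c-3p were miR-324-5p (0.16), miR-23b-3p (0.24) and miR-96-5p (0.29). miR-29a-3p and miR-29c-3p stood 7th in each other's order, at 0.43. Nearest to miR-29b-3p were miR-135a-5p (0.70), miR-20a-5p (0.76) and miR-200b-5p (0.76). In its order miR-29c-3p stood 46th at 2.14 and miR-29a-3p 64th at 2.51, where the median distance was 3.96. In the orders of miR-29a-3p and miR-29c-3p, miR-29b-3p stood 127th and 102nd, where the median distances were 2.40 and 2.59. Of the guides with the same seed, miR-29a-3p and miR-29c-3p thus lay closer to each other than to miR-29b-3p.

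Other miRNAs known to target DNA methyltransferases made up a list of 8. Of these, 6 averaged 50 CPM or more in HT29, and 3 of these were at least 2-fold higher, against 12.7% of 221 miRNAs at that level. Their median log2 ratio was 0.80, beside 0.0080 over the 221. With total reads 2 were at least 2-fold higher, against 4.98%. miR-148a-3p, which targets DNMT1 and DNMT3B, was at 1650 and 486 CPM in HT29 spheres and parental cells (2.35) and at 44700.5 and 34279 CPM in those of HCT15 (0.74). miR-101-3p, which also targets EZH2, was at 10569 and 20799 CPM in HT29 spheres and parental cells (-0.39) and at 1516 and 1486 CPM in those of HCT15 (0.38). miR-148b-3p had 1.44 and 0.74 and miR-185-5p had 0.15 and -0.33 in HT29 and HCT15. For miR-185-5p the HT29 value lay between -0.43 and 0.38 over the scalings. In HCT15 spheres and parental cells miR-185-5p was at only 3.01 and 5.02 CPM (interval -1.91 to 0.98), so no difference was detectable there. In HCT15, 4 of the 8 were at that level, 0 were at least 2-fold higher against 4% of 200 miRNAs, and their median was 0.57 beside 0.086.

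Of 10 miRNAs linked to extracellular matrix and TGF-beta signalling, 7 were at that level in each line. In HT29, 3 of 7 were at least 2-fold higher, against 12.7% of the 221 miRNAs, and 0 were lower by that much, against 19.9%. The median log2 ratio was 0.72. With total reads, 0 of 7 were higher and 1 was lower, against 4.98% and 33% of the 221. Without the 10 most abundant miRNAs 1 was higher and 1 lower, against 8.14% and 24.4%. In HCT15, 0 of 7 were past 2-fold in either direction, where 4% of 200 miRNAs were higher and 2% lower, and the median was 0.51. With DESeq2 size factors or the upper quartile 1 of 7 was higher, against 6% and 7.5% of the 200. miR-21-5p, the most abundant miRNA in every library, had 1.06 and 0.80 in HT29 and HCT15. miR-192-5p, an intestinal miRNA, had 1.36 and 0.58. miR-200c-3p and miR-200b-3p, which repress the regulators ZEB1 and ZEB2, had 0.72 and -0.29 in HT29 and 0.38 and 0.58 in HCT15. No test was made of these lists.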

How the data were processed

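Small RNA libraries were made with the TruSeq Small RNA kit from 1 ug of total RNA, per the labels' protocols. The authors deposited HT29 values as raw read counts per mature miRNA and HCT15 values as RPKM, with names from miRBase R19, per the file headers. Per the submitters' processing notes the authors used hg19, whereas positions here are on GRCh38 and were not converted. For the aligner, trimming and counting of multiply mapped reads, the sources used here give nothing. RPKM was divided by the value of 1 read, 0.263 in HCT15 spheres and 0.162 in parental cells, taken from the commonest listed value as 2 reads and 1 read. The sphere value is unsettled, and 1 read there may be 0.527. Within 0.02 reads, 37.4% of 254 and 46.1% of 581 values under 20 reads were whole, so no count test was the main result.

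TMM and limma 3.58.1, with a trend and line as a block, used log2 of TMM-scaled CPM plus 1, keeping names that reached 10 CPM in 2 libraries (R 4.3.3). edgeR 4.0.16 and DESeq2 1.42.0 were run on rounded reads, as alternatives. Within-line ratios have exact conditional binomial 95% intervals, and ratios of 2 ratios have exact conditional ones under 3000 reads and log-normal ones above (Python 3.11.15, scipy 1.17.1). Ranks and background shares used names present in all 4 files, except that ranks within a library used all of its names. The members, lists and naming rules were chosen with earlier results of these data known. All 7 members were named, with the 3 nearest miRNAs by level for each guide arm and up to 4 most abundant members of each related list.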

Additional observations from a re-analysis of the deposited data

Results flagged for a closer look

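Each result here was picked out because its sphere over parental difference pointed in opposite directions in HT29 and HCT15, with counting intervals that exclude 0 in both lines. None of these differences between lines was tested, since each line and culture had 1 library. The log2 ratio of HT29 minus that of HCT15 was -2.39 for miR-29b-3p, -0.69 for miR-29a-3p and -0.57 for miR-29c-3p. The signs of miR-29b-3p held under all 6 scalings in both lines, whereas those of miR-29a-3p and miR-29c-3p in HT29 turned with upper-quartile scaling. The ratio of miR-29b-3p to miR-29a-3p, which no scaling between libraries affects, had a difference of -1.71 between the lines, and that of miR-29b-3p to miR-29c-3p had -1.83. The 5p over 3p ratio of the miR-29b hairpins had a difference of 3.85, with 8.15 and 30.6 read equivalents of 5p in HCT15 spheres and parental cells behind it.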

How the results depend on the processing

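Against TMM, total reads shifted the median log2 ratio of all miRNAs averaging 50 CPM or more by -0.58 in HT29 and -0.35 in HCT15, and the upper quartile by 0.22 and 0.26. Of 105 alternative values of single-arm ratios, 74 stayed within their counting interval, 27 moved and 4 turned sign from an interval that excluded 0: miR-29a-3p (0.015) and miR-29c-3p (0.063) in HT29 with the upper quartile, miR-29c-3p (0.021) with TMM on HT29 alone, and miR-29b-2-5p (-0.11) in HT29 with total reads. miR-29b-3p kept its sign in both lines under each alternative. Given as total reads, without the 10 most abundant miRNAs, TMM on the line alone and upper quartile, the HT29 median over the 7 arms was -0.79, -0.48, -0.027 and 0.015. Over the 897 names above 0 in both HT29 libraries it was -0.59, -0.30, 0.034 and 0.074. In the same order the HT29 sum was -0.80, -0.48, -0.034 and 0.0084 for 29a~29b-1, and -0.75, -0.43, 0.020 and 0.062 for 29b-2~29c. HT29 arms at least 2-fold lower numbered 3, 2, 0 and 0 of 7, where 32.4%, 22.6%, 12.4% and 11.9% of 897 names were. Given as total reads, without the 10 most abundant miRNAs, DESeq2 size factors and upper quartile, the HCT15 median over the 7 arms was 0.056, 0.17, 0.62 and 0.67. Over the 550 names above 0 in both HCT15 libraries it was -0.35, -0.25, 0.15 and 0.19. In that order the HCT15 sum was 0.12, 0.23, 0.68 and 0.73 for 29a~29b-1, and 0.054, 0.16, 0.61 and 0.66 for 29b-2~29c. HCT15 arms at least 2-fold lower numbered 0 of 7 with DESeq2 size factors, the upper quartile or a prior count of 10, where 8.36%, 6.91% and 3.82% of 550 names were. Counted over both arms, the share of miR-29a in HT29 was 41.8% in spheres and 36.9% in parental cells, and that of miR-29c in HT29 spheres 38.8%. Arm differences stayed within their intervals with prior counts of 2 and 10. Across lines, 0 arms were called in limma under any of its alternatives, in edgeR or in DESeq2, and 0 with no replicate block, where 0 of 377 miRNAs were called in limma either; adjusted p-values ranged from 0.431 to 1.00 over arms and settings. Leaving out a line leaves no residual degrees of freedom, so only the ratio of the other line remains. No replicate number in the labels pairs libraries. Taking the commonest HCT15 sphere value as 1 read, an alternative chosen after seeing the data, turned no sign of a single-arm ratio, arm difference or pair ratio, and the intervals of miR-29b-3p against miR-29a-3p (0.68 to 1.08) and miR-29c-3p (0.74 to 1.16) stayed above 0. It raises the level that a count of 0 allows in spheres to 2.58 CPM. The shares of all names under each scaling were also added after seeing the data. Depth limits the HCT15 5p arms, of which 3 had under 30 reads in both libraries.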
